A study of Rattus norvegicus with 21 samples.

Results

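Cytosolic ribosomal protein genes encode the proteins that, together with ribosomal RNA, build the small and the large subunit of the ribosome outside the mitochondria. They were taken as every gene name of the deposited count table with a standard large-subunit (Rpl) or small-subunit (Rps) number, together with Rplp0, Rplp1, Rplp2 and Rpsa. Of 28914 gene rows, 81 names matched, and the 72 with at least 10 reads in 10 or more of the 21 libraries were used, 42 of the large and 30 of the small subunit. The other 9 had too few reads: Rps6 with a median of 4, Rps28 with 7, Rpl36 with 7, Rpl8 with 5, Rpl30l1 with 2, Rpl39l with 2, and Rpl38, Rpl39 and Rpl3l with 0. Rplp1 and Rpl22 were not among the 81 matched names, and neither were Rps7, Rps14, Rps26 and Rpl37, so the set is not complete.

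As background, ribosomal proteins are needed in near-equal amounts, and cells degrade those that are made in excess and not assembled. Their messenger RNAs belong to the 5′ TOP class, which starts with a cytosine followed by a run of pyrimidines and whose translation is controlled by mTORC1 through the binding protein LARP1. In islets, beta cells make very large amounts of 1 secreted protein, insulin, so that the protein-making machinery is part of what the tissue is known for. Rats carry many processed copies of these genes elsewhere in the genome, and short reads from such copies and from the parent gene are hard to assign.

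The libraries were polyadenylated RNA of islets of Langerhans from Lewis rats, an inbred strain, 4 weeks after surgery. In the PX group (n = 11) 90% of the pancreas had been removed, a partial pancreatectomy that leaves a small remnant, and the Sham group (n = 10) was sham-operated; the labels name no other treatment. The sample descriptions give 4-5 weeks for the rats, without saying whether this is an age. Each title carries an animal number, by which libraries are called here (PX 65, Sham 46); beyond that number nothing in the labels ties them to separate animals, so that p-values cover only the spread among these libraries. The design text gives the effect of hyperglycaemia on islet cells as the purpose of the comparison, and BG averaged before sacrifice, printed in the labels with no unit, was 82 to 104 in Sham and 101 to 174 in PX. RNA of whole islets was sequenced, so that fewer cells of a type and less RNA per cell cannot be told apart.

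Total counts ran from 4001908 to 13187959 per library, and the 72 genes took 0.384% to 0.669% of them. This share was 0.494% ± 0.0654 in Sham (SD, n = 10) and 0.503% ± 0.103 in PX (SD, n = 11). Markers of other cells moved with the group. All 14 macrophage markers and all 13 mesenchymal markers were called higher in PX, and their summed levels ran from 49.2 to 153 CPM in Sham against 215 to 1897 CPM in PX for macrophages, and from 267 to 903 against 760 to 2899 CPM for mesenchymal cells. Of 20 acinar markers, which all had a fold change above 0 (median 1.30 on the log2 scale), 4 were called higher, and the 20 took 0.626% to 23.3% of the counts in Sham and 6.10% to 48.2% in PX; no marker of these 3 lists was at 0 in every library. Of the other marker lists, 2 of 2 lymphocyte, 3 of 5 duct and 4 of 8 endothelial genes tested were called higher and none lower. Of islet cells, 3 of 9 beta markers were called lower and 1 higher, and 2 of 3 alpha and 2 of 3 delta markers were called lower, with medians of -0.90 and -1.02. Sham 46 had the highest macrophage and mesenchymal marker levels among the Sham libraries, PX 44 the lowest among the PX libraries, and PX 65 the highest acinar share of all. Their part in the results was not tested beyond the fits given further on. CPM here is a gene's share of the library total after scaling by the TMM factor, which sets most genes level between libraries.

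Because a pyrimidine start is described for the 5′ TOP class, the RefSeq starts on assembly GRCr8 were searched for pyrimidine words. The search was for 3 words of 5 letters (the word CTTTC, the word CTTCC and the word CTCTT). It covered the 25 bases on each side of the annotated start. Of the 72 genes, 52 had a start window in RefSeq matched by symbol and chromosome, and 36 of them (69.2%) held at least 1 word on the transcribed strand, against 20.2% of the 27457 gene starts of the same window length. On the opposite strand 6 of the 52 (11.5%) held a word, against 20.8% of all starts. The words can overlap each other, a match is a description of these letters only, and mitochondrial ribosomal protein genes held a word in 34.9% of 63 starts. The following windows reach from 15 bases before to 15 bases after the start, with the words in capitals. Rpl23, Rpl19, Rpl5 and Rpl10 hold words in 1 or 2 runs, which in Rpl5 lie wholly before the start. Rpl12 has a single word and is the gene with the firmest call in the comparison. The paralogs Rpl22l1 and Rpl7l1 hold none of the 3 words.
Rpl23, chr10:83272170-83272199, minus strand: actaaCTTCCTTTCtgaCTCTTTCcggacg
Rpl19, chr10:83519049-83519078, plus strand: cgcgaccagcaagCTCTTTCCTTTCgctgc
Rpl5, chr14:1995211-1995240, minus strand: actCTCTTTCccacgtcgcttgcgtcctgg
Rpl10, chrX:157205835-157205864, plus strand: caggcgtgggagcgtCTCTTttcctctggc
Rpl12, chr3:36661925-36661954, plus strand: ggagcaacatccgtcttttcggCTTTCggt
Rpl22l1, chr2:113683181-113683210, plus strand: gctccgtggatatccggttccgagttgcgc
Rpl7l1, chr9:21695703-21695732, plus strand: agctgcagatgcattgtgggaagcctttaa
The windows are RefSeq's reference sequence; the build on which the reads were counted is not given in the sources used here, and none of these positions was taken from the count table.

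Although the proteins are needed in near-equal amounts, the counted levels per length were far apart. Mean level over the 21 libraries, as CPM per kilobase of the gene length in the count table, was highest for Rpl41 (872), Rpl4 (458) and Rpl10 (412) and lowest for Rpl7a (2.44), Rps18 (2.89) and Rps19 (3.44). The highest and the lowest of the 72 mean levels differed 358-fold. Rpl41 encodes the smallest protein of the ribosome, Rpl4 and Rpl10 sit near the exit tunnel and the tRNA-binding cleft of the large subunit, and Rps19 is a small-subunit protein whose gene is mutated in Diamond-Blackfan anaemia. Of the 72 rows of counts, 9 had a single exon (Rps4y2, Rps13, Rpl35a, Rps10l1, Rpl10l, Rps29, Rpl30, Rpl36a and Rps18l1), 5 spanned more than 1 chromosome (Rps19, Rps4x, Rpl32, Rpl21 and Rps27a), and of 71 with a RefSeq symbol 61 lay wholly on RefSeq's chromosome. The single-exon rows of Rps13, Rpl35a, Rps29, Rpl30 and Rpl36a lay on another chromosome than RefSeq gives for the symbol. How reads that match several places were treated is not given in the sources used here, so the level of any 1 of these genes is uncertain, and the part of gene copies in the spread of levels was not tested.

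**Figure D1:**
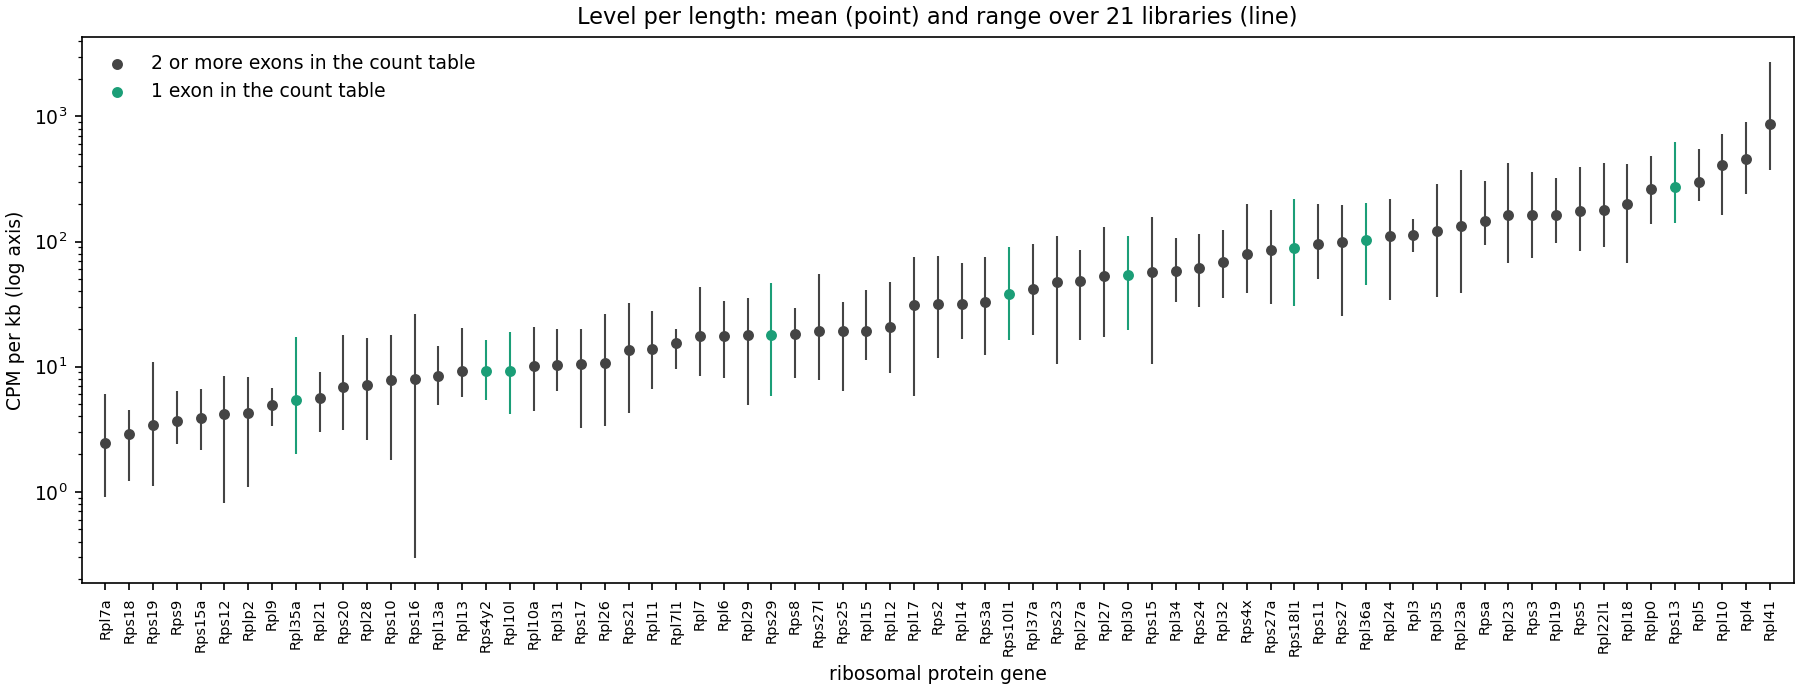
Level of 71 of the 72 genes in CPM per kilobase (log axis), with the mean as a point and the range over the 21 libraries as a line, green for rows with 1 exon. The means run from 2.44 for Rpl7a to 872 for Rpl41, and Rps16 has the line that reaches lowest.

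Fold changes of the ribosomal protein genes in PX against Sham were mostly small and above 0 under TMM scaling, nearer to 0 under library totals, and few passed the test. All 72 passed the filter on low counts. In edgeR's quasi-likelihood test with Benjamini-Hochberg adjustment over 13136 genes, 3 of the 72 were called higher at an adjusted p under 0.05 (Rpl12, Rpl35a and Rps27l), where 14.9% of all genes were, and 0 were called lower, where 16.2% of all genes were. The log2 fold change was above 0 for 70 of the 72 (97.2%), against 45.6% of all genes tested, with a median of 0.36 against -0.04. With library totals in place of TMM the count above 0 was 44 of 72 and the medians were 0.05 and -0.28, so that the sign of the members' change depends on the scaling, while their median lay 0.33 above that of all genes, against 0.40 with TMM. At an unadjusted p under 0.05, 18 members were higher (25% against 19.3% of all genes) and 0 lower (against 22.7%). DESeq2 called 15 of the 72 higher (20.8%), where it called 18% of all genes, and limma voom 1 (1.39%), where it called 14%; neither called a member lower. Whether the members' share of calls lay below or above that of all genes thus depended on the test.

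The medians of both subunits lay close together. The 42 large-subunit genes had a median log2 fold change of 0.35 with 42 above 0, and the 30 small-subunit genes a median of 0.37 with 28 above 0. The 9 single-exon rows had a median of 0.51 and the 63 others 0.34. The 43 genes with a median of at least 100 reads had a median of 0.39, and the 29 with fewer reads 0.30. Genes with a pyrimidine word within 25 bases of the annotated start, before or after it, had a median of 0.31 (n = 36). Genes without one had 0.40 (n = 16). Members were seen to vary together across libraries, so these medians are descriptions and were not tested against each other.

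**Figure D2:**
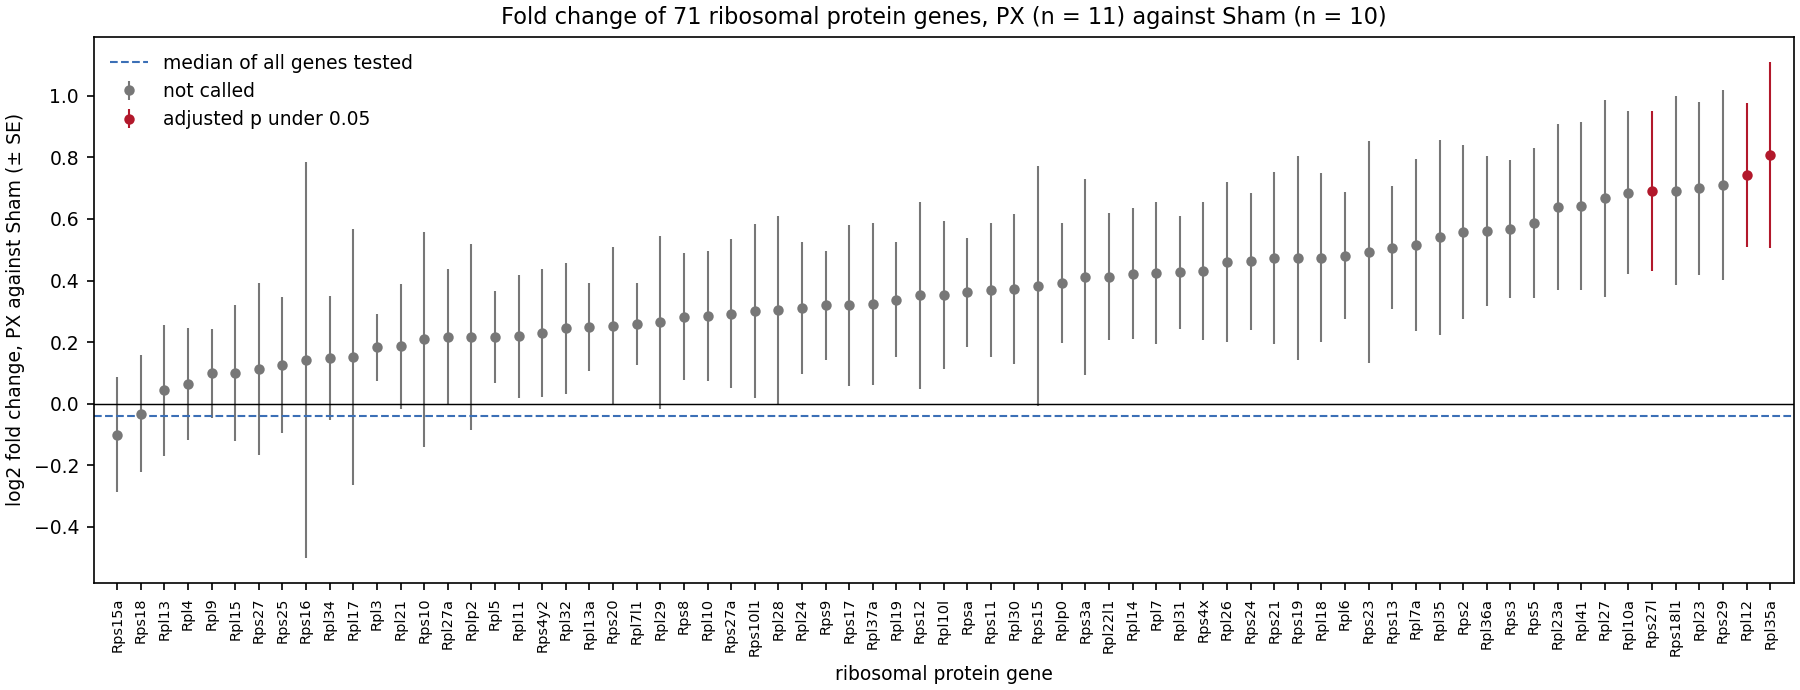
Log2 fold change of PX (n = 11) against Sham (n = 10) for 71 of the 72 genes, with the standard error as a bar, ordered by size. The 3 called genes are red, the dashed line is the median of all genes tested (-0.04), and only Rps15a and Rps18 lie below 0 under TMM scaling.

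Rpl12 had the firmest call. It encodes a protein at the base of the stalk of the large subunit, where translation factors dock. Its level ran from 5.22 over a median of 8.24 to 16.2 CPM in Sham and from 8.21 over 12.8 to 28.1 CPM in PX. The 5 libraries PX 57, PX 58, PX 62, PX 65 and PX 66 lay above every Sham library, and the others overlapped with Sham. The mean rose from 9.08 ± 3.55 (SD, n = 10) to 14.9 ± 6.25 CPM (SD, n = 11). Its log2 fold change was 0.74 ± 0.23 (SE; edgeR, adjusted p = 0.0176). It was called with each of the 21 libraries left out in turn and in 12 of 16 other settings; with the acinar score as a covariate its log2 fold change was 0.32 (edgeR, adjusted p = 0.305). In the authors' deposited table Rpl12 was the only member past the threshold, with a log2 fold change of 0.71 and an adjusted p of 0.0214, and 68 of the 72 had a positive value there.

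Rpl35a and Rps27l passed by a narrow margin. Rpl35a encodes a large-subunit protein. Its row is a single exon on another chromosome than RefSeq gives for the symbol, with a median of 12 reads. It ran from 0.683 over 1.30 to 2.19 CPM in Sham and from 0.667 over 1.83 to 5.73 CPM in PX. PX 38, PX 44 and PX 65 lay above every Sham library, PX 37 lay below, and the groups otherwise overlapped. The log2 fold change was 0.81 ± 0.30 (SE; edgeR, adjusted p = 0.0441), called in 13 of 21 fits with 1 library left out and in 5 of the 14 other settings in which it passed the filter. Without PX 44 it was 0.60 and not called.

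Rps27l encodes a paralog of the small-subunit protein S27 and is known as a target of p53. It ran from 5.46 over 10.4 to 20.3 CPM in Sham and from 7.56 over 13.0 to 38.8 CPM in PX. PX 57 and PX 65 lay above every Sham library and the other 9 PX libraries lay within the Sham range. The log2 fold change was 0.69 ± 0.26 (SE; edgeR, adjusted p = 0.0461), called in 12 of 21 fits with 1 library left out and in 8 of 16 other settings, and 0.48 and not called without PX 65. Neither gene was called with voom, with no filter or with library totals. Its partner Rps27 ran from 10.4 over 35.9 to 49.5 CPM in Sham and from 8.67 over 29.5 to 67.3 CPM in PX, with a log2 fold change of 0.11 ± 0.28 (SE; edgeR, adjusted p = 0.784).

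Paralogs were also set against their partners within each library, which does not depend on the library scaling. Of 6 pairs planned, 3 could be measured, and p-values were adjusted over these 3. The log2 ratio of Rps27l to Rps27 was -1.62 ± 0.42 in Sham (SD, n = 10) and -1.04 ± 0.51 in PX (SD, n = 11). Of the 11 PX libraries, 9 lay above the Sham mean and 4 above every Sham library. The groups overlapped, with -2.47 to -0.92 in Sham and -1.69 to -0.20 in PX. The difference of means was 0.58 (permutation test, two-sided, adjusted p = 0.0337). The 2 genes differ in length and the ratio is of reads, so it gives no ratio of molecules. It did not pass without PX 36, PX 37, PX 65, PX 70, Sham 50 or Sham 74 in turn, with differences of 0.49 to 0.66 over all 21 fits. For the other 2 pairs the groups overlapped too, and the test did not pass. Rpl7l1 to Rpl7, the first encoding a factor of ribosome assembly, differed by -0.07 and Rpl10l to Rpl10, the first known from testis, by 0.12 (permutation tests, adjusted p = 0.772 for both).

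Values of the remaining paralogs and partners lay within the same range. Rpl22l1, a paralog of the large-subunit gene Rpl22, ran from 63.6 over 82.5 to 129 CPM in Sham and from 50.9 over 94.8 to 236 CPM in PX. PX 44, PX 57 and PX 65 lay above every Sham library and PX 37 below. Its log2 fold change was 0.41 ± 0.21 (SE; edgeR, adjusted p = 0.134). The values were 0.26 for Rpl7l1, 0.42 for Rpl7, 0.35 for Rpl10l, 0.28 for Rpl10 and 0.18 for Rpl3, and none of these passed.

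The stalk and the 5S particle are parts of the large subunit. Rplp0 and Rplp2 form the stalk, which recruits elongation factors. Rplp0 ran from 153 over 257 to 325 CPM in Sham and from 152 over 267 to 526 CPM in PX, with PX 57, PX 58, PX 62, PX 65 and PX 66 above every Sham library and PX 44 below. Its log2 fold change was 0.39 ± 0.20 (SE; edgeR, adjusted p = 0.132). Rplp2 had a median of 9 reads and ran from 0.384 to 2.85 CPM in Sham and from 0.617 to 2.69 CPM in PX, with a log2 fold change of 0.22 ± 0.30.

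Rpl5 and Rpl11 bind the 5S RNA and, outside the ribosome, the p53 regulator Mdm2. Rpl5 ran from 247 over 287 to 423 CPM in Sham and from 228 over 316 to 588 CPM in PX, and Rpl11 from 31.0 over 49.2 to 67.5 CPM and from 25.6 over 55.2 to 108 CPM. Both had a log2 fold change of 0.22, with standard errors of 0.15 and 0.20, and overlapped between groups. Rpsa, a small-subunit protein also described as a laminin receptor, ran from 94.7 over 117 to 214 CPM in Sham and from 109 over 136 to 308 CPM in PX, with a log2 fold change of 0.36 ± 0.18 (SE; edgeR, adjusted p = 0.122).

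At the ends of the order of fold changes, groups overlapped as well. Rps29 encodes a small-subunit protein that binds zinc, and its row is a single exon on another chromosome than RefSeq gives for the symbol. Rps29 ran from 1.92 over 4.21 to 6.04 CPM in Sham and from 1.78 over 4.81 to 14.1 CPM in PX. Its log2 fold change was 0.71 ± 0.31 (SE; edgeR, adjusted p = 0.0812). PX 44, PX 57, PX 58, PX 62 and PX 65 lay above every Sham library and PX 37 below. At the other end, Rps15a had -0.10 ± 0.19, Rps18 -0.03 ± 0.19 and Rpl13 0.04 ± 0.21 (SE), and no PX library of these 3 lay above every Sham library. The separate single-exon row Rps18l1 held a median of 254 reads, against 45 for Rps18. Its log2 fold change was 0.69 ± 0.31 (SE; edgeR, adjusted p = 0.0897). Of the genes of highest level per length, Rpl41 ran from 166 over 311 to 397 CPM in Sham and from 206 over 398 to 1216 CPM in PX, with 6 PX libraries above every Sham library and the highest value in PX 65. Its log2 fold change was 0.64 ± 0.27 (SE; edgeR, adjusted p = 0.0755). Rpl4 had 0.06, and the low-level genes Rpl7a and Rps19 had 0.51 and 0.47, none of them called.

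The higher values in PX came mainly from a few libraries. Over the 72 genes, the median number of PX libraries above every Sham library was 3 of 11, the most was 6, and 7 genes had none. PX 65 lay above every Sham library for 53 of the 72 genes, PX 62 for 43, PX 58 for 36, PX 57 for 35 and PX 66 for 18, and each of the other 6 PX libraries for 0 to 5. PX 37 lay below every Sham library for the most genes and had the lowest value of all 21 libraries for 25 of the 72. Sham 24 had it for 11. Such counts were not made over all genes, so whether they are particular to ribosomal protein genes was not tested.

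As a mean of log2 CPM over the 72 genes, Sham libraries ran from 3.96 in Sham 24 to 4.81 in Sham 49 (4.51 ± 0.25, SD, n = 10) and PX libraries from 3.96 in PX 37 to 5.48 in PX 65 (4.77 ± 0.51, SD, n = 11). The libraries with animal numbers PX 57 to PX 70 ran from 4.36 to 5.48, and those of PX 36 to PX 44 from 3.96 to 4.69. No such run of numbers holds both groups, which cannot be compared inside it. The acinar share was 16.9% to 48.2% in PX 57 to PX 70 and 6.10% to 16.2% in PX 36 to PX 44. PX 65, with 48.2% of its counts on acinar markers, had a TMM factor of 0.375, and its ribosomal protein genes took 0.395% of all counts, near the lower end of the 21 libraries, but its level after scaling was the highest. PX 62 and PX 58 had the highest macrophage marker levels of all libraries. The part of acinar, macrophage and mesenchymal RNA in the level of these genes was not tested beyond the fits with those scores.

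**Figure D3:**
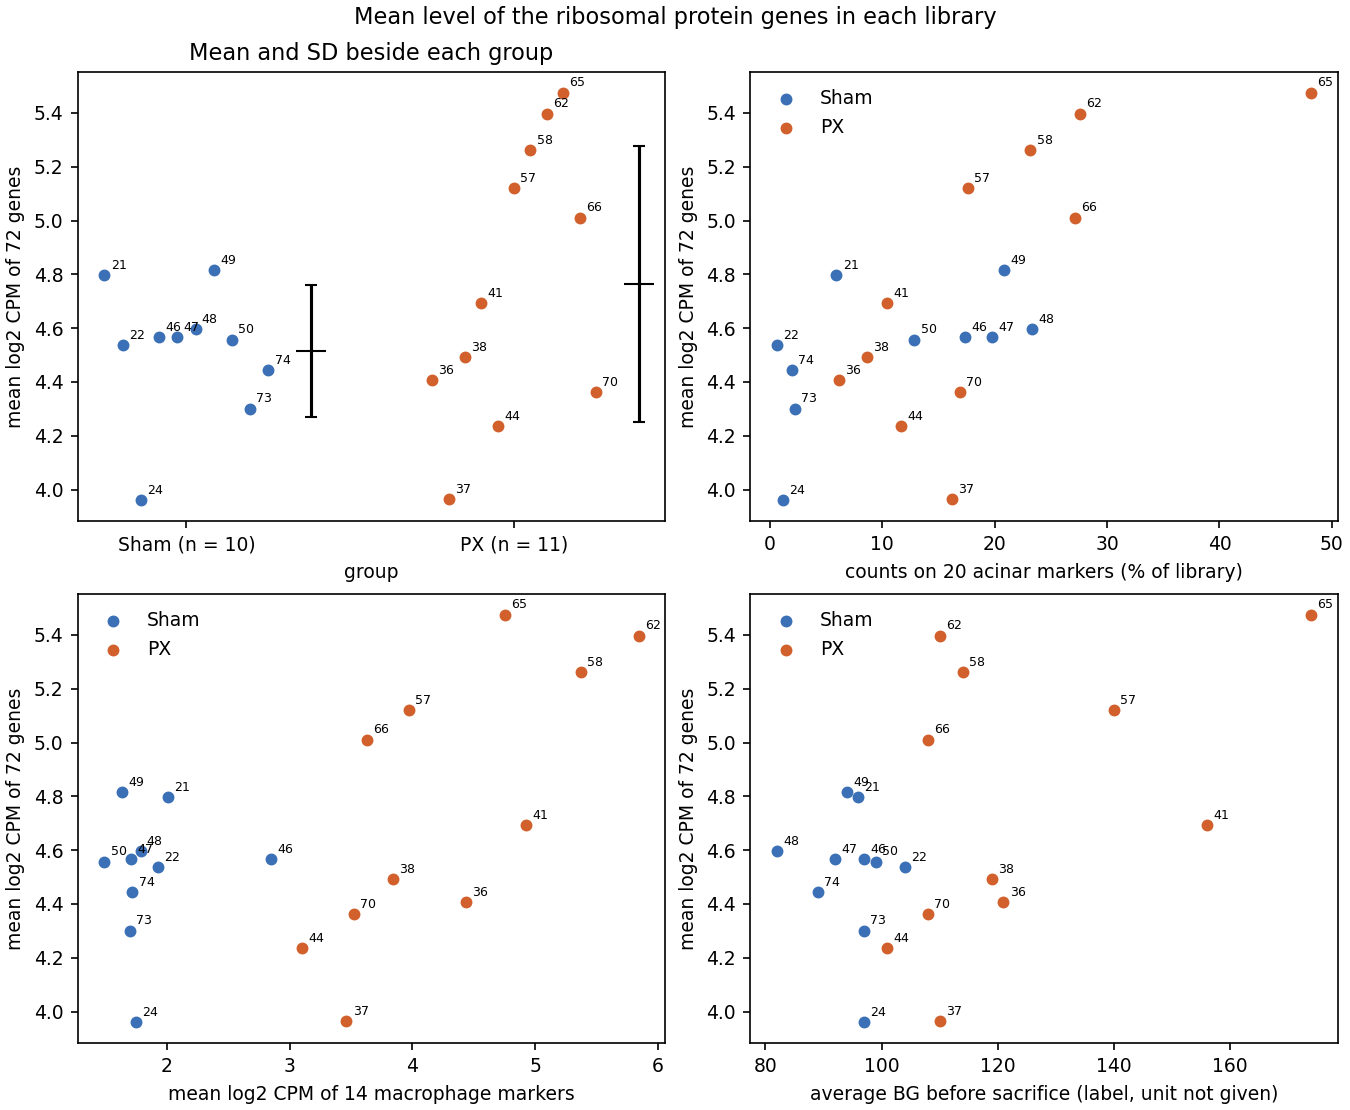
Mean log2 CPM of the 72 genes in each library, by group with mean and SD, and against the percent of counts on 20 acinar markers, the mean log2 CPM of 14 macrophage markers and the BG value of the labels, with the animal number beside each point. PX 57, 58, 62, 65 and 66 lie above every Sham library, and the other 6 PX libraries lie within the Sham range.

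Levels of these genes varied together across libraries within the groups. Each gene's group mean was first subtracted from its log2 CPM, for Sham and PX apart. Over the 2556 pairs of genes, the correlation of these deviations across the 21 libraries had a median of 0.55. It was above 0 in 92.3% of pairs. The points share libraries and their scaling factors, so this is a description. Such correlations were not computed over all genes, so whether they are particular to ribosomal protein genes was not tested. With the mean deviation of the other members, 60 of the 72 had a correlation above 0.5. The lowest were Rps16 (-0.06), Rpl35a (0.11), Rpl10l (0.16), Rpl17 (0.18) and Rpl28 (0.21).

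Rps16 followed a split of the libraries that is not the split into groups. It had 6 to 9 reads in 5 libraries (Sham 49, Sham 50, PX 44, PX 57 and PX 65) and 27 to 325 reads in the other 16. Its level was 0.529 to 1.41 CPM in the 5 and 5.57 to 47.4 CPM in the 16, with no overlap. Rpl17 (3.86 to 7.23 against 8.92 to 50.1 CPM) and Rpl28 (3.96 to 5.46 against 6.67 to 25.8 CPM) were low in the same 5 libraries, also without overlap. The other 69 ribosomal protein genes overlapped between the 5 and the 16.

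Among the 11161 genes with a mean of at least 30 reads, 168 lay lower in all 5 of these libraries than in every other library and 121 lay higher. Of these separated genes Rps16 had the largest mean difference, -3.81 on the log2 scale. The 5 libraries were picked by its reads, so its own separation was set by that choice. The labels give no sequencing batch or date, and the reason for the split was not tested; it was seen in the values of Rps16 and is used here only to repeat the comparison. The 5 libraries hold 2 Sham and 3 PX libraries and the 16 hold 8 of each. Within the 16 libraries, 69 of 70 members tested had a positive log2 fold change, and the median was 0.38 against -0.01 for all genes. There edgeR called 5 members higher (7.14%, against 15.8% of all genes), among them Rpl12, Rps13, Rps27l and Rpsa. With a term for the 5 libraries, 3 were called (Rpl12, Rps13 and Rps27l), or 4.17% against 16.2% of all genes, and the median was 0.33. Within the 5, where 2 against 3 libraries are too few for a test, the median difference of the mean log2 CPM was 0.25, with 55 of 72 members higher in PX, and by the same measure 0.23 and 66 of 72 within the 16. Rps16 itself had a log2 fold change of 0.14 ± 0.64 (SE) over all libraries, the widest error of the 72.

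**Figure D4:**
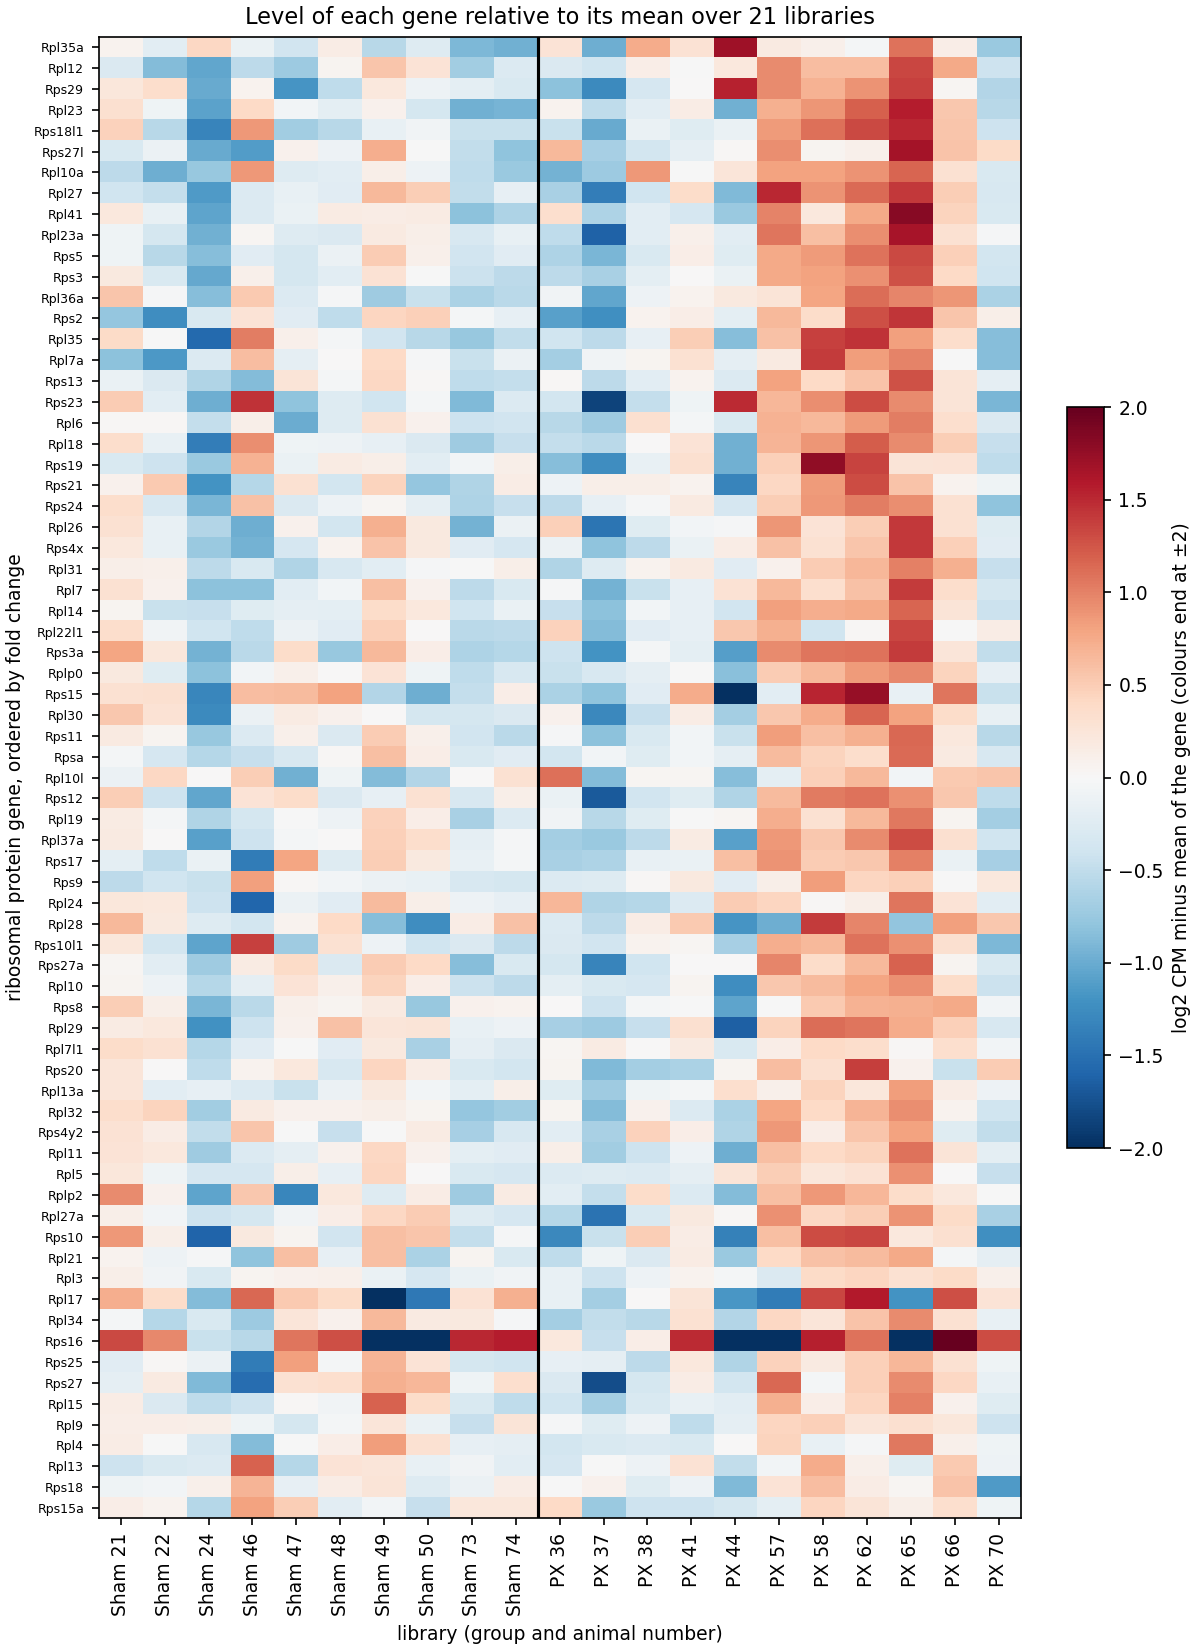
Log2 CPM of 71 of the 72 genes minus the gene's mean over the 21 libraries, with genes ordered by fold change from the top and colours ending at 2 above and below. PX 57, 58, 62 and 65 are red over most genes, PX 37 and Sham 24 blue, and Rps16, Rpl17 and Rpl28 are blue in Sham 49, Sham 50, PX 44, PX 57 and PX 65.

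Which genes were called depended on the fit, and the members' distance from all genes less so. The number of members called higher was 0 to 17 over 16 other settings, and 1 to 23 with 1 library left out, lowest without Sham 50, Sham 73, Sham 74 or PX 65 and highest without PX 37. The share of members called lay below that of all genes in 14 of the 16 settings, the exceptions being the DESeq2 test and voom with quality weights (23.6% against 20.5%). It also lay below in 18 of the 21 fits with 1 library left out, the exceptions being those without PX 37 (31.9% against 18.4%), PX 44 (22.2% against 19.2%) and Sham 46 (20.8% against 19.8%). No setting called a member lower. The members' median log2 fold change minus that of all genes lay between 0.31 and 0.41 in 14 of these settings. It was 0.10 with the acinar score as a covariate, where 50 of 72 were above 0, and it turned to -0.57 with both the macrophage and the mesenchymal score as covariates, where 14 of 72 were above 0. These scores differ between the groups, and in that last fit edgeR called 6 genes of all 13136, so that the group and the scores cannot be told apart there. With PX 44, PX 65 and Sham 46 left out together, 12 members were called (16.9%, against 20.1% of all genes) and the median was 0.39.

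**Figure D5:**
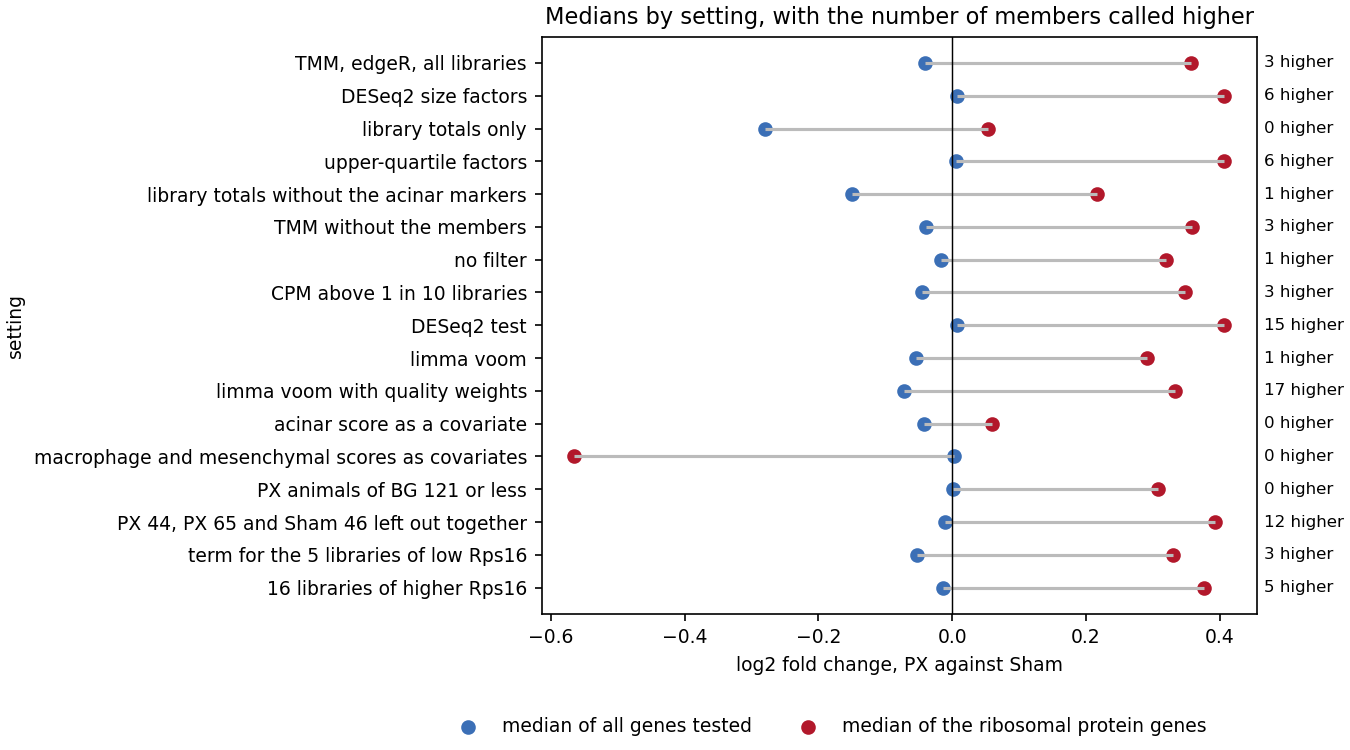
Median log2 fold change of the ribosomal protein genes (red) and of all genes tested (blue) under each setting, with the number of members called higher at the right. The red points lie right of the blue ones in every setting except the fit with macrophage and mesenchymal scores, where the median of the members is -0.57, and with library totals the red point is near 0 (0.05).

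Within PX, levels of ribosomal protein genes were set against the BG value of the labels. No member had a called slope, and no gene among the 14442 tested did (edgeR, background 0% rising and 0% falling; 1756 genes at an unadjusted p under 0.05; DESeq2 called 13 rising and 14 falling, none of them members, and limma voom 0). The slope per 10 BG units was above 0 for 61 of the 72 members, with a median of 0.10 on the log2 scale against -0.01 for all genes, and 20 members had an unadjusted p under 0.05. Without PX 65, which has the highest BG of 174, the median was 0.03 and 0 members had an unadjusted p under 0.05. With library totals the median slope was -0.01, but that of all genes was -0.10, so that members lay 0.09 above all genes, against 0.10 with TMM. Without PX 65 they lay 0.04 above. Adding the acinar score to the BG model gave a median slope of 0.04 for the members, 0.05 above all genes. In that fit 51 of the 72 were above 0, and 1 member had an unadjusted p under 0.05 (edgeR), where 791 of all genes did. A term for the PX libraries of low Rps16, described above, left the median at 0.10 with 67 above 0. There 3 members had an unadjusted p under 0.05 (edgeR), where 2311 of all genes did.

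Other genes of protein synthesis are set beside all genes tested, of which 14.9% were called higher, 16.2% lower and 45.6% were above 0. Among ribosomal constituents that the naming rule leaves out, Fau, which encodes a ribosomal protein fused to a ubiquitin-like protein, and Rack1, a scaffold on the small subunit, had log2 fold changes of 0.58 and 0.38, neither called. Of 74 mitochondrial ribosomal protein genes 61 were above 0, with a median of 0.17, and only Mrpl17 was called (0.57 ± 0.15, SE; edgeR, adjusted p = 0.00448). Of 16 elongation factors and other mRNAs of the 5′ TOP class, 10 were above 0 with a median of 0.14, 0 were called higher and Pabpc1, the poly(A)-binding protein, fell by 0.44 ± 0.15 (SE; edgeR, adjusted p = 0.0303).

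Upstream of the ribosome, calls went both ways, and for these lists too the shares over all genes were 14.9% higher and 16.2% lower. Of 31 initiation factors 2 rose and 2 fell, among them Eif4a1, the helicase of the cap complex, at 0.42, Eif1ax, a start-site factor, at 0.39, and Eif1, a factor of start-codon choice, which fell by 0.59. Of 47 genes of ribosome biogenesis and RNA polymerase I tested, 3 rose and 2 fell, with Rrp12 at 0.38, Bop1 at 0.29 and Utp15 falling by 0.34, and a median of -0.03. Of 16 genes of the mTORC1, LARP1 and MYC axis 1 rose and 4 fell, with Mlst8, a subunit of mTORC1, falling by 0.46, Larp4b by 0.37 and Tsc1, an inhibitor of mTORC1, by 0.59. Of 13 p53 targets and regulators 3 rose and 2 fell, with Phlda3 at 1.47, Cdkn1a at 0.71 and Mdm4 falling by 0.54. The called values named here are log2 fold changes that passed edgeR's adjusted threshold, in libraries where the macrophage and mesenchymal markers were also higher.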

How the data were processed

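Gene counts of 21 rat islet libraries were used. The deposited table holds raw read counts by gene, laid out as featureCounts writes them per the file headers, and a gene length, from which levels per length were computed. FastQC, Subread, featureCounts and limma are named in the submitters' processing notes, without versions; the genome build, the strand setting and the treatment of reads that match several places are not stated in them. Although the labels name a directional kit, overlapping antisense genes may therefore share reads. The authors' deposited table of PX against Sham gives a log2 fold change and an adjusted p-value per gene, per the file headers; it was used only where named.

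With R 4.3.3 and edgeR 4.0.16, libraries were scaled by TMM, genes were filtered with filterByExpr (minimum count 10, minimum total 15), and robust quasi-likelihood models were fitted to PX against Sham over 13136 genes and, within the 11 PX libraries, to BG per 10 units over 14442 genes. Tests were two-sided, with Benjamini-Hochberg adjustment over all genes tested and a threshold of 0.05. Standard errors were derived from each fold change with its F statistic. Log2 CPM used a prior count of 2. Paralog ratios used a pseudocount of 0.5 and permutation tests with 100000 resamples (scipy 1.17.1). Marker scores are means of log2 CPM over a list. Start windows came from the RefSeq table on GRCr8.

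Members and lists were chosen with earlier results of these data known. Named members were those called, the 3 highest and 3 lowest fold changes, the stalk, 5S, Rpsa and paralog genes with their partners, the 3 highest and 3 lowest levels per length, and up to 3 genes of each other list by p; Rps16, Rpl17, Rpl28 and the members called only in other fits were named after their values were seen. Some genes that these rules name are left out of the text and figures and are not reported here. Alternatives were DESeq2 1.42.0 size factors, library totals with and without acinar markers, upper-quartile factors, TMM without the members, no filter, CPM above 1 in 10 libraries, the DESeq2 test, limma 3.58.1 voom with and without quality weights, covariate fits (the acinar score, or the macrophage and mesenchymal scores), PX restricted to the 8 animals of BG 121 or less, a pseudocount of 5 for ratios, and fits without 1 library. The removal of PX 44, PX 65 and Sham 46 together, the term for and the removal of the 5 libraries of low Rps16, and a BG filter with the PX libraries as 1 group were chosen after seeing the data. The fits were checked on simulated counts.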

Additional observations from a re-analysis of the deposited data

Results flagged for a closer look

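The level of Rpl13, a large-subunit protein gene, stood apart in 1 Sham library: log2 CPM was 3.73 in Sham 46, and the next highest of the 10 Sham libraries had 2.81. The gap was 0.52 of the whole Sham range, above the value of 0.466 set for 10 samples. In all 28 values were looked at in this way and 1 passed, and chance gives about 1 in 20. Sham 46 also had the highest macrophage and mesenchymal marker levels of the Sham group; their part in the level of Rpl13 was not tested. Without Sham 46 the log2 fold change of Rpl13 in PX against Sham was 0.33, against 0.04 with it, and was not called by edgeR in either fit.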

How the results depend on the processing

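No paired analysis was possible because the animal numbers are not shared between the groups. Members called higher numbered 3 in the fit as reported, 6 with DESeq2 size factors and with upper-quartile factors, 15 with the DESeq2 test and 17 with voom quality weights, 1 with voom, with no filter and with totals without acinar markers, and 0 with library totals, the acinar score, the macrophage and mesenchymal scores, and the PX animals of BG 121 or less. Of the alternatives chosen after seeing the data, 12 were called without PX 44, PX 65 and Sham 46 (16.9%, against 20.1% of all genes). In the 16 libraries of higher Rps16, 5 were called (7.14%, against 15.8%). The members' share of calls lay above that of all genes in 2 of the 16 other settings. It also did so in 3 of the 21 fits with 1 library left out. Leaving out 1 library gave 1 to 23 members, 1304 to 2258 genes lower, 1709 to 2607 genes higher and a median of 0.26 to 0.49. All genes higher numbered 990 with library totals and 4 with the macrophage and mesenchymal scores; all genes lower numbered 3723 with quality weights, 996 with the acinar score, 2 with the macrophage and mesenchymal scores and 957 in PX animals of BG 121 or less. The members' median was 0.053 with library totals and 0.059 with the acinar score (0.10 above all genes), and it reversed to -0.57 (-0.57 against all genes) with the macrophage and mesenchymal scores.

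For named genes that changed sign the cause was not tested. With library totals the log2 fold changes were -0.18 for Rpl13, -0.070 for Rplp2, -0.090 for Rpl5, -0.11 for Rpl11, -0.21 for Rps27, -0.078 for Rpl3, -0.019 for Rpl10 and -0.26 for Rpl4, and without acinar markers in the totals -0.059 for Rpl13, -0.051 for Rps27 and -0.10 for Rpl4. With the acinar score they were -0.16 for Rpl13, -0.015 for Rplp2, -0.013 for Rpl5, -0.064 for Rpl11, -0.185 for Rps27, -0.088 for Rpl10 and -0.22 for Rpl4. With the macrophage and mesenchymal scores they were -0.80 for Rpl13, -0.56 for Rplp0, -1.09 for Rplp2, -0.051 for Rpl5, -0.59 for Rpl11, -0.0044 for Rpsa, -0.11 for Rpl7l1, -0.66 for Rpl10l, -0.30 for Rpl3, -0.73 for Rpl10, -0.33 for Rpl41, -1.03 for Rpl7a and -1.91 for Rps19. Rps18 was 0.0155 with DESeq2 size factors, 0.0192 with upper-quartile factors, 0.0152 with the DESeq2 test, 0.0183 with quality weights, 0.060 in the 16 libraries and 0.20 without PX 44, PX 65 and Sham 46, where Rps15a was 0.10 and Rpl4 -0.11. With quality weights Rps27 was -0.014 and Rpl4 -0.010, and in PX animals of BG 121 or less -0.16 and -0.093. Leaving out 1 library moved Rpl13 over -0.054 to 0.33, Rpl4 over -0.093 to 0.18, Rps15a over -0.16 to 0.069, Rps18 over -0.12 to 0.12 and Rps27 over -0.026 to 0.27. Over all settings other than left-out libraries, 294 of 365 values of named genes kept direction and side of the threshold.

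The ratio of Rps27l to Rps27 differed by 0.57 in the 16 libraries (exact permutation test, adjusted p = 0.116), by 0.55 with a pseudocount of 5, and by 0.49 to 0.66 with 1 library left out. Rpl7l1 to Rpl7 was 0.074 in the 16 and -0.18 to 0.065 with 1 left out, and Rpl10l to Rpl10 -0.023 to 0.22. The median BG slope was -0.012 with library totals and 0.034 to 0.13 with 1 library left out (0.043 to 0.14 above all genes); genes rising with BG numbered 6 with no filter, 13 with DESeq2 (14 falling) and 0 to 1 with 1 library left out. Depth limits genes such as Rplp2 and Rpl35a, with a median of 9 and 12 reads.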
